A study of Rattus norvegicus with 8 samples.

Results

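Iron handling genes were examined in the livers of Sprague Dawley rats given lipopolysaccharide (LPS, the endotoxin of Gram-negative bacteria) and of controls. The set was fixed by name: Hamp (hepcidin), Lcn2 (lipocalin), Tf (transferrin), Tfrc (transferrin receptor), Slc40a1 (ferroportin), Slc39a14 (the transporter ZIP14), the ferritin chains Fth1 and Ftl1, Bmp2 and Id1. Probes were matched by symbol, older synonyms included, which gave 11 of the 23615 probes and 8 of the 10 genes. No probe was named Tf or Fth1, so neither gene was analysed here. The 8 genes stood among 21052 features tested.

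The LPS group held 4 rats injected into the peritoneum with 3 mg/kg LPS, and the control group held 4 rats. The controls are labelled non-treated, but the protocol describes a vehicle injection (0.9% sodium chloride); the time is 24 h and age is listed as not known. Column headers of the intensity table instead give day 2 throughout. They put LPS array 1 at 100 mkd (Mid), the other LPS arrays at 1000 mkd (High) and the controls at 0 mkd. The values do not settle which is right. Each array read 1 liver in Cy5 against a pool of control liver RNA in Cy3, and arrays are numbered here in table order within a group. Labels describe the samples as biological replicates. The measure was the log2 ratio of liver over pool, so that 0 means the level of the pool, and differences are LPS minus control with the standard error from limma (linear models with moderated variances) and a p-value adjusted by Benjamini-Hochberg over all 21052 features. A gene was called changed at an adjusted p under 0.05. Folds given with a difference are that difference on the linear scale, so the means they compare are geometric means of the ratios. Intensities are given in the arbitrary units of the deposited table, which cannot be compared between probes.

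Each array had values for 23408 to 23529 of the 23615 probes, with a median liver intensity of 0.12 to 0.17 units and a highest one of 46.8 to 58.46 units. The spread of log2 ratios over probes was wider on LPS arrays (SD 0.50 to 0.573) than on control arrays (SD 0.222 to 0.339). Of 8 listed hepatocyte markers 3 were measured, and albumin, the defining one, was bright in both groups, at 7.3 to 10.7 units in LPS livers and 15.78 to 20.465 units in control livers.

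Systemic iron is governed by hepcidin, a peptide hormone made by hepatocytes, which binds the iron exporter ferroportin on macrophages, hepatocytes and gut cells and sends it to degradation. Transcription of the hepcidin gene is driven by separate inputs: bone morphogenetic proteins (BMPs) from sinusoidal endothelium acting through SMAD proteins, and IL-6 acting through STAT3 during inflammation. Inside cells, iron regulatory proteins bind ferritin and transferrin receptor transcripts and set iron storage against iron uptake. Lipocalin 2 withholds iron from bacteria by binding their siderophores.

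Of the 8 measured genes, 6 were called. Lcn2, Tfrc, Id1 and Slc39a14 rose, and Bmp2 and Slc40a1 fell; Hamp and Ftl1 did not pass. Over all features 24.7% were called, 12.2% higher and 12.4% lower, so 6 of 8 (75.0%) was a larger share than the background, in a set chosen by name with earlier results of these data known. The groups did not overlap in 5 of the 8 genes, against 27.8% of all features. The median difference of the 8 genes was 0.83, against -0.04 for all features. After quantile normalization of the ratios Slc39a14 was still called, and the other 5 had adjusted p-values of 0.0649 to 0.0885.

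**Figure D1:**
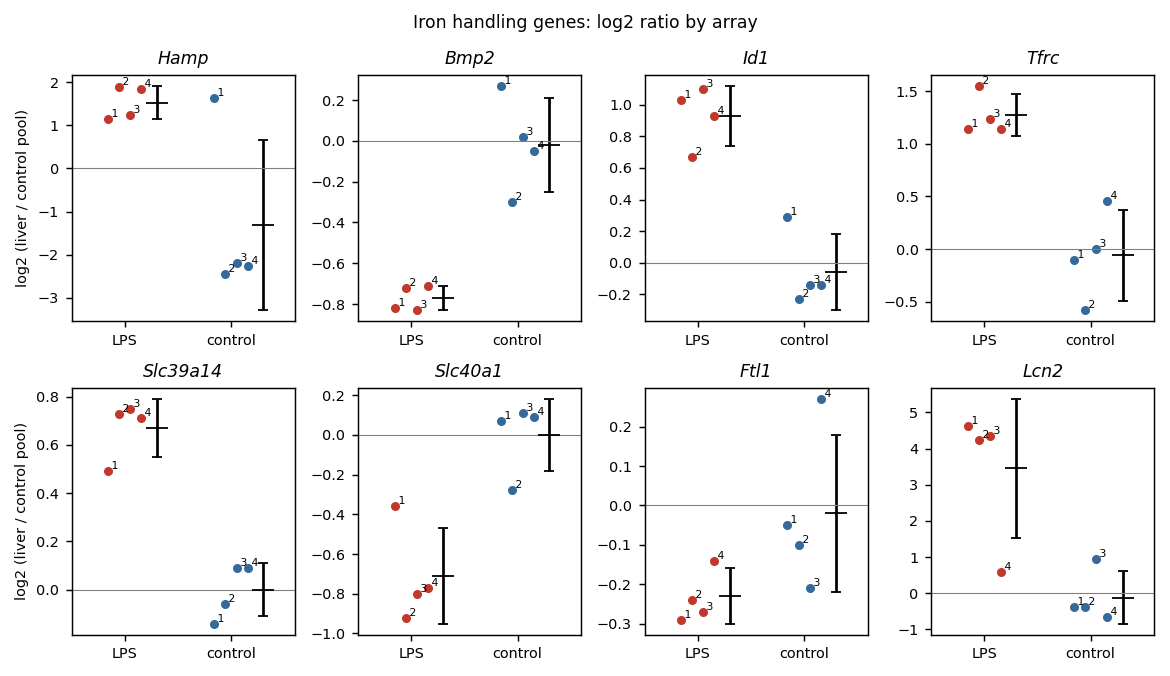
Log2 ratio of liver over control pool for the 8 measured iron handling genes, LPS arrays in red left of control arrays in blue, numbered in table order; bars give the mean and SD (n = 4 each), and each panel has its own vertical scale. Control array 1 lies among the LPS arrays for Hamp (1.63), and LPS array 4 lies among the control arrays for Lcn2 (0.58).

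Hamp encodes hepcidin and lies at chr1:95298332-95300271 (GRCr8, minus strand). The stretch of its promoter from 149 to 89 bases before the start is printed because it holds the letters of both inputs, a BMP-response element (GGCGCC) and a STAT-type site (TTCNNNGAA), given in capitals; the sequence is that of RefSeq for GRCr8, chr1:95300360-95300420, minus strand.
Hamp promoter: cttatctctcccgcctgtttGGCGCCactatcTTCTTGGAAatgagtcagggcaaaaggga
The GGCGCC lies 129 to 124 bases and the TTCTTGGAA 117 to 109 bases before the start, without overlap. Searched on both strands in the 250 bases before the start, GGCGCC was found in 8.69% of 33469 promoters, TTCNNNGAA in 7.67% and both in 0.379%. A match of letters is a description of the sequence and not a measured binding site. Of the other genes of the set with a promoter in the table (Lcn2, Tf, Tfrc, Slc40a1 and Id1), Tfrc had the GGCGCC letters, from position -118 relative to its start, and none had TTCNNNGAA.

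Hamp stood above the pool in all 4 LPS livers, with log2 ratios of 1.16, 1.89, 1.23 and 1.84 on LPS arrays 1 to 4. On control arrays 1 to 4 its log2 ratios were 1.63, -2.45, -2.19 and -2.27. Thus 3 control livers were far below the pool and 1 was level with the LPS livers, and the groups overlapped. The same split was seen in the liver intensities, at 1.9, 3.45, 1.99 and 3.04 units in LPS livers and 2.66, 0.17, 0.18 and 0.17 units in control livers. The pool channel barely moved, at 0.85 to 0.93 units on LPS arrays and 0.82 to 0.93 units on control arrays, so the high value of control array 1 came from its liver channel. The mean of the 4 control livers, 0.795 ± 1.243 units (SD, n = 4), was near the 0.857 units that the pool itself gave on the control arrays; the labels do not say which livers were pooled.

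The difference for Hamp was 2.85 ± 0.90 (95% confidence interval 0.76 to 4.94; limma, adjusted p = 0.0545), a 7.21-fold higher mean that did not pass. Without control array 1 it was 3.83 with an adjusted p of 0.000582, and without any other single array the adjusted p was 0.0957 to 0.126. Liver intensity alone, in this and later fits quantile normalized between arrays, gave 2.75 (limma, adjusted p = 0.0422). The hepatocyte markers, from the cell type that makes hepcidin, summed to 11.79 to 13.87 units in LPS livers and 20.04 to 26.06 units in control livers; of the 3 measured, Serpina1 was called higher on a probe at 0.04 to 0.09 units in LPS livers and 0.02 units in control livers, albumin lower (-1.40 ± 0.12) and Cps1 was not called. In bulk liver, fewer cells of a type and less RNA per cell cannot be told apart, and the part of these markers in any result here was not tested.

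**Figure D2:**
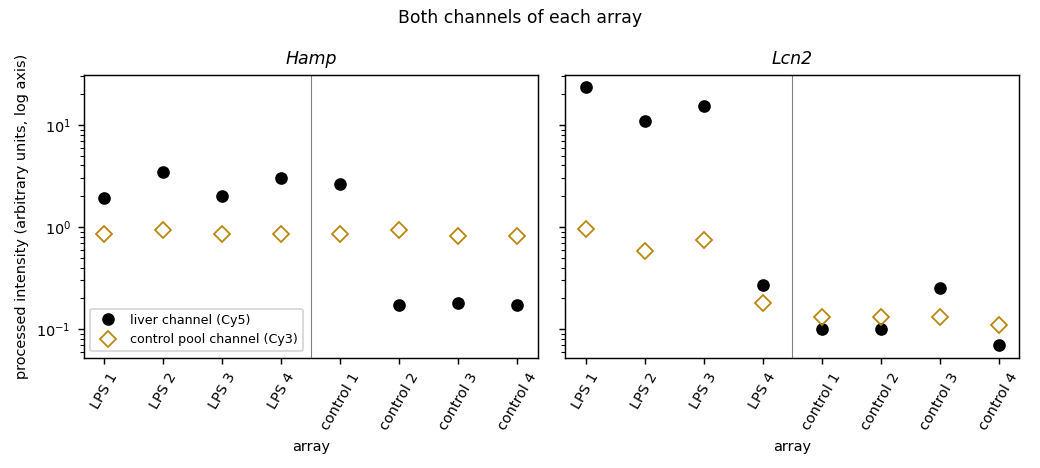
Processed intensity (arbitrary units, log axis) of the liver channel (filled circles) and the control pool channel (open diamonds) for Hamp and Lcn2 on each array, LPS arrays left of control arrays. The pool reading of Hamp stays between 0.82 and 0.93 units, while that of Lcn2 is 0.18 to 0.95 units on LPS arrays and 0.11 to 0.13 units on control arrays.

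By Pearson correlation over the 8 arrays, among 636 features with a wide range, the patterns most like that of Hamp were those of LOC685961 (r = 0.889), Fcnb (0.852), Mcm5 (0.836), Ccl7 (0.821) and Ms4a4a (0.82). The points are 4 LPS and 4 control arrays read against a shared pool, so r largely restates the gap between groups. Fcnb, which encodes a ficolin of myeloid cells, read 0.41 on control array 1, above the other controls (-1.0 to 0.0). Ccl7, a monocyte chemokine, read 0.58 there and 0.0 on the other control arrays. Because the search ranked features by likeness to Hamp, it favoured those that also read high on control array 1.

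Bmp2, a ligand that induces hepcidin and that in mice comes mainly from liver endothelium, fell. Its log2 ratios were -0.82, -0.72, -0.83 and -0.71 in LPS livers and 0.27, -0.30, 0.02 and -0.05 in control livers, with no overlap. The difference was -0.75 ± 0.11 (95% confidence interval -1.02 to -0.49; limma, adjusted p = 0.00309), a 1.69-fold lower mean. Its pair of probes went the same way, at -0.66 ± 0.11 and -0.85 ± 0.13. Bmp2 was dim, at 0.205 to 0.25 units in LPS livers and 0.305 to 0.495 units in control livers. The gene lies at chr3:141264648-141275416 (GRCr8).

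Markers of sinusoidal endothelium, measured for 7 of 8, summed to 31.8 to 42.93 units in LPS livers and 45.41 to 52.24 units in control livers. The lower sum came from Kdr, at 16.6 to 21.08 units in LPS livers and 28.02 to 32.45 units in control livers. The markers did not move as a block. Kdr (-0.53 ± 0.05) and Stab2 (-0.46 ± 0.07) fell. Fcgr2b (0.52 ± 0.10), Pecam1 (0.40 ± 0.06) and Tek (0.29 ± 0.05) rose, and Lyve1 and Bmp6 were not called. The part of this cell type in the value of Bmp2 was not tested.

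Id1, a transcriptional inhibitor whose gene is a direct target of BMP and SMAD signalling in hepatocytes, rose. The log2 ratios of Id1 were 1.03, 0.67, 1.1 and 0.93 in LPS livers and 0.29, -0.23, -0.14 and -0.14 in control livers. All LPS livers stood above all control livers, by 0.99 ± 0.14 (95% confidence interval 0.66 to 1.31; limma, adjusted p = 0.00229), a 1.98-fold higher mean. Bmp2 and Id1 thus moved in opposite directions. Control array 1, the one with high Hamp, also gave the highest control values of Id1 (0.29) and Bmp2 (0.27). Other BMP target genes, looked up afterwards, were mixed on that array. It gave the highest control value of Id2 (0.51) and Smad7 (0.51), the lowest of Atoh8 (-0.32), and neither for Id3 (0.13) and Smad6 (0.07). Id1 lies at chr3:161671525-161672691 (GRCr8).

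Of 29 further genes of the BMP and SMAD arm of hepcidin control, 26 were measured; 6 rose, 5 fell and 15 were not called (42.3% called, against 24.7% of all features). Fkbp1a, which encodes a protein that binds and restrains BMP type I receptors, rose by 0.58 ± 0.10 (limma, adjusted p = 0.00506). Smad7, an inhibitor of the pathway that it is itself induced by, has no settled direction. Its ratio passed (0.58 ± 0.16, limma, adjusted p = 0.0352) with overlap between the groups, but liver intensity alone, quantile normalized between arrays, gave -0.26. Before that step the dim Smad7 probe averaged 0.08 units in LPS livers and 0.075 units in control livers. The pool averaged 0.053 units on LPS arrays and 0.073 units on control arrays. Without any single array other than control array 1 the call was lost (adjusted p = 0.0644 to 0.0894). Tmprss6, the hepatocyte protease that cuts hemojuvelin and so lowers hepcidin, fell (-0.51 ± 0.13, adjusted p = 0.0266). Its log2 ratios were -0.42, -0.57, -0.40 and -0.59 in LPS livers and -0.13, 0.40, -0.11 and -0.12 in control livers, and the call was lost without any one LPS array (adjusted p = 0.0509 to 0.073). Furin, a protease that matures the hepcidin precursor, fell (-0.43 ± 0.08, adjusted p = 0.00657).

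Hfe, Hjv and Bmp6, which act upstream in this arm, were not called. Hfe, the hemochromatosis protein, differed by -0.25 ± 0.12 (limma, adjusted p = 0.18), with an interval of -0.54 to 0.04. Hjv, the BMP co-receptor hemojuvelin, differed by 0.29 ± 0.18 (adjusted p = 0.289; interval -0.14 to 0.72). Bmp6, the other endothelial ligand of this axis, differed by 0.15 ± 0.19 (adjusted p = 0.599) at 0.05 units in LPS livers and 0.028 units in control livers, too dim to read. Tfr2 was not analysed here. Among other known BMP target genes, set beside Id1 after their values were seen, Id3 (0.42 ± 0.12, adjusted p = 0.0362) and Atoh8 (0.44 ± 0.11, adjusted p = 0.0251) rose in the ratios, while Id2 (0.69 ± 0.27, adjusted p = 0.101) and Smad6 (0.10 ± 0.11, adjusted p = 0.543) did not pass. Neither rise passed with liver intensity alone (adjusted p = 0.216 for Id3 and 0.515 for Atoh8). The call of Id3 was also lost without any one LPS array or without control array 1 or 2 (adjusted p = 0.0504 to 0.0945), and that of Atoh8 without LPS array 2, 3 or 4 (0.0537 to 0.0681). Atoh8 averaged 2.27 units in LPS livers and 2.077 units in control livers, while its pool reading averaged 1.727 units on LPS arrays and 2.103 units on control arrays.

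Of 13 genes of the inflammatory arm, 11 were measured; 2 rose, 2 fell and 7 were not called (36.4% called, against 24.7% of all features). Stat3, which encodes the factor that carries the IL-6 signal to the hepcidin promoter, gave log2 ratios of 1.18, 1.54, 1.57 and 1.58 in LPS livers and -0.21, 0.11, 0.31 and -0.01 in control livers. It rose by 1.42 ± 0.14 (limma, adjusted p = 0.000488), and control array 1, with high Hamp, had the lowest Stat3 value of all arrays. Il1b, a cytokine that can induce hepcidin, rose by 3.47 ± 0.22 (adjusted p = 0.000159). Il6 itself was near the lower end of the scale, at 0.07 units in LPS livers and 0.043 units in control livers, with a difference of 0.09 ± 0.12 (adjusted p = 0.611). Creb3l3 (-0.78 ± 0.14, adjusted p = 0.00595) and Cebpb (-0.66 ± 0.09, adjusted p = 0.00234), which encode transcription factors that bind the hepcidin promoter, fell.

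**Figure D3:**
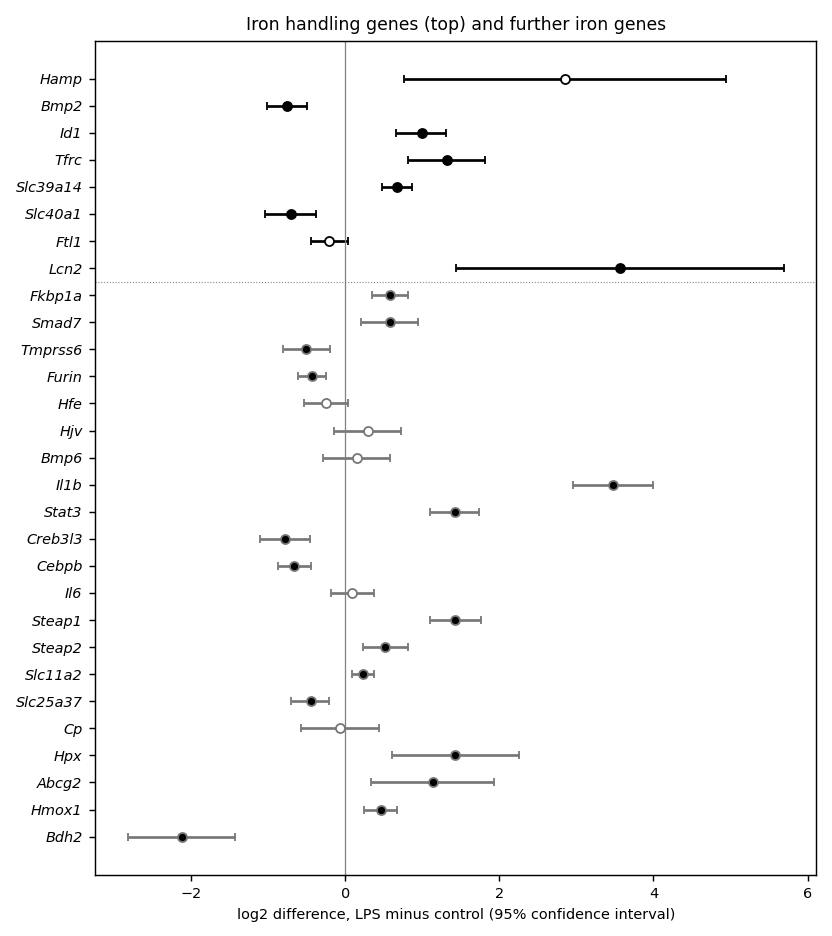
Log2 difference, LPS minus control, with its 95% confidence interval from limma, for the 8 measured iron handling genes (above the dotted line) and 21 further iron genes (below it); filled points passed an adjusted p of 0.05 and open points did not. Lcn2 (3.56) and Il1b (3.47) lie farthest to the right and Bdh2 (-2.12) farthest to the left, and the interval of Hamp runs from 0.76 to 4.94.

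Tfrc, the receptor that brings transferrin-bound iron into cells, rose. The log2 ratios of Tfrc were 1.14, 1.55, 1.23 and 1.14 in LPS livers and -0.10, -0.58, 0.00 and 0.46 in control livers. No LPS liver fell within the control range. The difference was 1.32 ± 0.21 (95% confidence interval 0.82 to 1.82; limma, adjusted p = 0.00408), a 2.5-fold higher mean. Liver intensities were 0.33 to 0.47 units in LPS livers and 0.10 to 0.22 units in control livers. Tfrc lies at chr11:81668478-81690318 (GRCr8).

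Erythroid cells are rich in transferrin receptor, so their markers are given beside it. Of 9 listed, 7 were measured, none rose, and 3 fell (42.9% called, against 24.7% of all features). Those that fell were Hbb (-1.97 ± 0.32), Hba-a1 (-1.55 ± 0.23) and Alas2 (-1.19 ± 0.19). The measured markers summed to 3.94 to 4.5 units in LPS livers and 8.12 to 22.43 units in control livers, the opposite direction to Tfrc. Ahsp and Klf1 had no value on LPS array 3, nor Klf1 on control array 3. The sums of those arrays (4.5 and 8.12 units) leave them out. Among controls the highest sum and the highest Tfrc value were both on array 4.

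Slc39a14, the zinc and iron transporter ZIP14 through which hepatocytes take up iron not bound to transferrin, rose. On the log2 scale its ratios were 0.49, 0.73, 0.75 and 0.71 in LPS livers and -0.14, -0.06, 0.09 and 0.09 in control livers, without overlap. The difference was 0.67 ± 0.08 (95% confidence interval 0.48 to 0.87; limma, adjusted p = 0.00135), a 1.6-fold higher mean. Liver intensity alone gave a smaller value of 0.44 that did not pass (limma, adjusted p = 0.0523). Before quantile normalization the intensity was 13.25, 13.97, 15.21 and 13.51 units in LPS livers and 8.5, 10.1, 10.45 and 11.65 units in control livers. The pool read 8.27 to 9.45 units on LPS arrays and 9.35 to 10.94 units on control arrays. Slc39a14 lies at chr15:51786517-51833260 (GRCr8).

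Slc40a1, which encodes ferroportin, the exporter that hepcidin removes, fell. Ratios on the log2 scale were -0.36, -0.92, -0.80 and -0.77 in LPS livers and 0.07, -0.28, 0.11 and 0.09 in control livers. In this average of its probes the groups did not overlap, although LPS array 1 and control array 2 came close to each other. The difference was -0.71 ± 0.14 (95% confidence interval -1.04 to -0.38; limma, adjusted p = 0.00964), a 1.63-fold lower mean. Its probes gave -0.74 ± 0.22 and -0.67 ± 0.11. On the first of them the groups overlapped, at -0.32 on LPS array 1 and -0.51 on control array 2. Averaged intensities were 1.845 to 2.72 units in LPS livers and 3.35 to 4.32 units in control livers. Slc40a1 lies at chr9:55525457-55633463 (GRCr8).

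Kupffer cells, the resident macrophages that recycle iron from red cells, carry much of the liver's ferroportin. Of 8 listed Kupffer cell and macrophage markers 7 were measured, and they summed to 13.86 to 17.33 units in LPS livers and 18.02 to 24.57 units in control livers. The lower sum came from Clec4f, a marker of rodent Kupffer cells. Its probe read 1.32 to 3.0 units in LPS livers and 7.63 to 12.44 units in control livers. Clec4f fell (-2.30 ± 0.22), as did Vsig4 (-0.45 ± 0.08). Adgre1 rose (1.06 ± 0.16) and the other 4 markers, Cd163 and Cd68 among them, were not called. Their part in the fall of Slc40a1 was not tested.

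Ftl1, the ferritin light chain that helps lay down the iron core of ferritin, did not pass. Its log2 ratios, averaged over its probes, were -0.29, -0.24, -0.27 and -0.14 in LPS livers and -0.05, -0.10, -0.21 and 0.27 in control livers, with overlap. The difference was -0.21 ± 0.10 (95% confidence interval -0.45 to 0.03; limma, adjusted p = 0.182). Its probes went the same way, but only the one listed under a RefSeq transcript passed. That probe gave -0.29 ± 0.08 (limma, adjusted p = 0.0353 over probes) and the other -0.13 ± 0.13 (adjusted p = 0.529). Ferritin light chain has close copies in rodent genomes, so probe identity is uncertain here. The gene lies at chr1:105072858-105074705 (GRCr8).

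Of 23 further genes of cellular iron uptake, storage and the iron regulatory proteins, 20 were measured; 4 rose, 1 fell and 15 were not called (25.0%, near the 24.7% of all features). Steap1, of a family that includes iron and copper reductases, rose by 1.43 ± 0.14 (limma, adjusted p = 0.000563). Its probe was dim, at 0.158 units in LPS livers and 0.062 units in control livers. The control ratios were all 0.00, at a level where 2 decimals leave few possible ratios, so its standard error and p-value are uncertain. Steap2, a metalloreductase of that family, rose by 0.52 ± 0.12 (adjusted p = 0.0205), a call lost without LPS array 2 or control array 1 (adjusted p = 0.057 in each). Slc11a2, the iron importer DMT1, rose by 0.23 ± 0.06 (adjusted p = 0.0266), a call that was lost without LPS array 2 or 3 or control array 1 or 3 (adjusted p = 0.0515 to 0.063) and with liver intensity alone (0.243). Slc25a37, the mitochondrial iron importer mitoferrin, fell (-0.45 ± 0.10, adjusted p = 0.0186) on a dim probe, a call lost without LPS array 3 or control array 1 (adjusted p = 0.0542 and 0.0513). Cp, the ferroxidase ceruloplasmin that works with ferroportin, differed by -0.07 ± 0.22 (adjusted p = 0.846), and its sign turned under other settings.

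Lcn2 encodes lipocalin 2 and lies at chr3:36078432-36081851 (GRCr8, minus strand). The promoter table takes base 36081780, inside these gene bounds, as its start. Its promoter from 250 to 213 bases before the start is shown because it holds, in capitals, the letters of an NF-kB site, read on the opposite strand; the sequence is that of RefSeq for GRCr8, chr3:36081993-36082030, minus strand.
Lcn2 promoter: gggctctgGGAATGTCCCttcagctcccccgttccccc
The capitals lie 242 to 233 bases before the start. The motif was found in 3.54% of the 33469 promoters, and in no other gene of the set with a promoter in the table.

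Lcn2 had the widest difference of the set. Its log2 ratios were 4.62, 4.23, 4.35 and 0.58 on LPS arrays 1 to 4 and -0.38, -0.38, 0.94 and -0.65 on control arrays 1 to 4. On 3 LPS arrays Lcn2 was far above every control, while LPS array 4 read below control array 3, so the groups overlapped. Liver intensities were 23.31, 10.92, 15.34 and 0.27 units in LPS livers and 0.10, 0.10, 0.25 and 0.07 units in control livers. The fourth LPS liver was thus at 0.27 units, next to the highest control. Lcn2 rose by 3.56 ± 0.91 (95% confidence interval 1.44 to 5.69, limma, adjusted p = 0.0263), an 11.8-fold higher geometric mean.

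Without LPS array 4 the difference was 4.52 (limma, adjusted p = 0.00154). Without LPS array 1, 2 or 3 or control array 1, 2 or 4 the call was lost (adjusted p = 0.0643 to 0.0772). The pool channel, which should hold the same RNA on every array, read 0.95, 0.58, 0.75 and 0.18 units on LPS arrays and 0.13, 0.13, 0.13 and 0.11 units on control arrays, in the same order over the LPS arrays as the liver channel. Liver intensity alone gave a larger difference, 5.46 (adjusted p = 0.0175). Over all 23073 probes with pool values on every array, 3.76% had a pool reading at least 2-fold higher on LPS arrays, and Lcn2 ranked number 17 (4.19-fold by the mean of log2 values, 2.07 on that scale).

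Lcn2 is made by hepatocytes during inflammation and is also a neutrophil granule protein. Of the 8 neutrophil markers, all measured, 4 rose and none fell (50.0% called, against 24.7% of all features). They summed to 7.78, 10.21, 10.67 and 13.43 units on LPS arrays 1 to 4 and 0.46 to 0.56 units on control arrays. The sum was highest on LPS array 4, where Lcn2 was lowest. S100a9, which makes up most of that sum, was 6.93, 9.01, 9.37 and 12.1 units in LPS livers and 0.15 to 0.32 units in control livers. Mpo, the granule enzyme myeloperoxidase, had a log2 ratio of 0 on all arrays but was too dim to read. It gave 0.02 to 0.05 units in LPS livers and 0.02 to 0.04 units in control livers. Of the 4 markers that rose, Csf3r and Mmp8 were also dim, at no more than 0.09 and 0.06 units. The part of neutrophils in the Lcn2 level was not tested. Stellate cell markers, measured for 5 of 6, summed to 4.35 to 5.42 units in LPS livers and 4.03 to 5.37 units in control livers, and 3 of them rose.

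**Figure D4:**
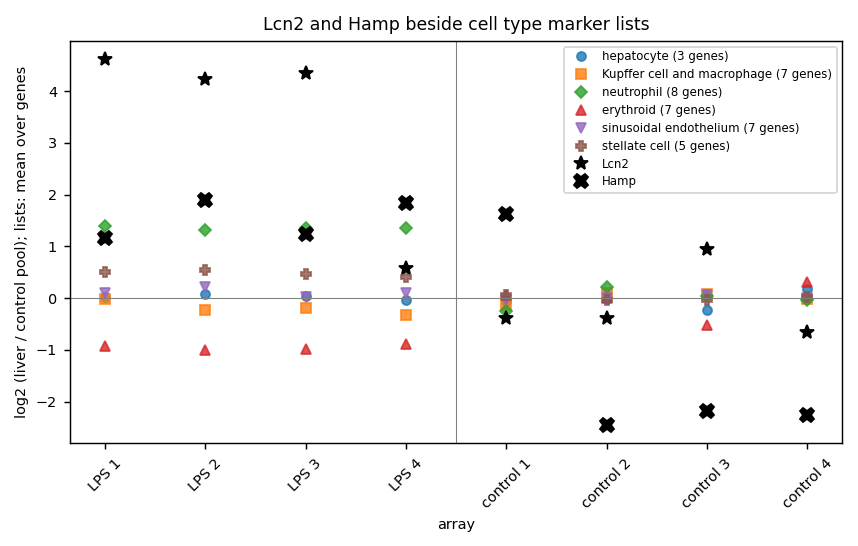
Log2 ratio of liver over control pool on each array for Lcn2 (stars) and Hamp (crosses), beside the mean log2 ratio of 6 cell type marker lists, LPS arrays left of control arrays. The neutrophil mean is 1.32 to 1.39 on LPS arrays, array 4 included, and -0.25 to 0.21 on control arrays.

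The patterns most like that of Lcn2 over the 8 arrays, by the same search and with the same reservation about shared arrays and groups, were those of Bhlha15 (r = 0.928), Creld2 (0.913), Akr1c2 (0.905), Slc2a6 (0.902) and Dnajb11 (0.896). Of these, Akr1c2 also read low on LPS array 4: its log2 ratios were 2.84, 2.04, 2.90 and 0.18 in LPS livers and -1.51, -1.33, 1.04 and 0.43 in control livers. Creld2 and Dnajb11, which encode chaperone-related proteins of the endoplasmic reticulum, read lowest among LPS arrays on array 4 (1.79 and 1.3) but stayed above all controls. Bhlha15 (0.89) and Slc2a6 (2.0) did the same. The search favoured such features, because Lcn2 itself read low on that array.

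Of 15 further genes of heme, hemoglobin and siderophore handling, 11 were measured; 4 rose, 1 fell and 6 were not called (45.5% called, against 24.7% of all features). Hpx, the plasma heme scavenger hemopexin, gave log2 ratios of 1.16, 1.31, 1.65 and 1.18 in LPS livers and -0.94, -0.32, 0.88 and -0.04 in control livers. It rose by 1.43 ± 0.35 (limma, adjusted p = 0.0231), a call lost without LPS array 2, 3 or 4 or control array 2 (adjusted p = 0.0532 to 0.069). Hmox1, the heme-degrading enzyme heme oxygenase 1, rose by 0.46 ± 0.09 (adjusted p = 0.00915). Abcg2, an exporter that carries porphyrins among other substrates, rose by 1.14 ± 0.34 (adjusted p = 0.0464), with overlap between the groups. That call was lost without any single array other than LPS array 1 (adjusted p = 0.0604 to 0.117). Bdh2, a dehydrogenase proposed to make the mammalian siderophore, fell (-2.12 ± 0.30, adjusted p = 0.00228). Its log2 ratios were -1.67, -1.75, -3.05 and -2.10 in LPS livers and -0.16, 0.12, -0.21 and 0.18 in control livers. Hp was not analysed here. Over all further iron genes, 68 of 80 were measured, 16 rose and 9 fell (36.8% called, against 24.7% of all features, 12.2% higher and 12.4% lower). After quantile normalization 5 were still called: Bdh2, Cebpb, Il1b, Stat3 and Steap1.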

How the data were processed

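Per the labels' protocols, 100 ng of liver RNA went through 2 rounds of amplification and was read on arrays with 2 channels; Agilent Feature Extraction 8.5.1.1 is named in the submitters' processing notes. The deposited intensity values are processed and linear, with 2 decimals, and were used for liver and pool, as per the file headers. No source used here gives the background correction or dye normalization. The series' other deposited table holds the log10 ratio of liver over pool and was used as an alternative; its columns matched the intensity ratios of 23614 probes and had a median of 0, so centring there cannot be told from ratios of 0.

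The animal numbers heading the table's columns match no label. Headers therefore gave each array its group but no replicate number, and values were not used to map samples. The ratios of each array equalled the log10 values of the labelled sample with the same number in its group (r = 1.0). Probes were named by RefSeq accession (4175), then by current (9465) or older symbol (2629) in the GRCr8 rat gene table; 469 kept a symbol not in it and 6877 had none. Leaving out 188 probes that had under 3 values in either group, probes of a symbol were averaged (14219 features with a symbol, 6833 without). The comparison used limma's lmFit and eBayes (version 3.58.1, R 4.3.3; 1.54 prior degrees of freedom; median standard error 0.103). The genes of the set, the further lists and the tests were chosen with earlier results of these data known. Named genes were the 10 of the set, from each further list the 2 largest called changes in each direction, 12 fixed genes, and for Hamp and Lcn2 the 5 features with the highest Pearson r among those with a log2 range of at least 2. Alternatives were robust and trended eBayes, median centring and quantile normalization of the ratios. The liver channel alone was another, as log2 intensities quantile normalized between arrays. Further alternatives were the log10 table with and without a replicate block, single probes, a minimum of 0.1 units and values on all 8 arrays. The last were a test against 1.5-fold (treat) and leaving out each array. On simulated data with 21052 features there were 5 false calls; 56.7% of changes were found at 1.5-fold, 71.6% at 2-fold and 92.4% at 4-fold. The number of arrays limits the precision. Python 3.11.15, pandas 2.3.3, numpy 2.4.6 and matplotlib 3.10.9 were used.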

Additional observations from a re-analysis of the deposited data

Results flagged for a closer look

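In each group of 4 arrays, the highest and the lowest value were set against Dixon's critical value for the gap to the nearest array over the whole range. Of 36 groups checked, 10 held an array that stood apart. About 1 in 20 would do so for continuous normal values. Some probes gave tied ratios and the genes were chosen with earlier results known, so 10 of 36 cannot be read against that rate.

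Hamp read 1.63 on control array 1, against -2.19 for the nearest control. Lcn2 read 0.58 on LPS array 4, against 4.23 for the nearest LPS array. Slc40a1 read -0.28 on control array 2, with the nearest control at 0.07. Among further iron genes, control array 2 also stood apart for Tmprss6 (0.40, nearest -0.11) and Hmox1 (0.21, the other controls tied at 0.00). Hfe read -0.22 on control array 1 (nearest 0.04), and Hjv read 0.41 on control array 4 (nearest -0.12). Stat3 read 1.18 on LPS array 1 (nearest 1.54). Bmp6 read 0.32 on LPS array 2 and Il6 read 0.41 on control array 3, each with the nearest array at 0.00; both probes lie under 0.1 units, where 2 decimals leave few possible ratios.

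The pool channel of Lcn2, outside the comparison of ratios, had a linear mean 4.92-fold higher on LPS arrays than on control arrays. Of 4 probes with a liver reading over 10 units on an LPS array and a pool reading under 0.5 units on the control arrays, 3 had a pool reading at least 2-fold higher on LPS arrays. Lcn2 was itself among these 4 and among the 3. The median shift of the pool channel over all probes was 0.16 on the log2 scale.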

How the results depend on the processing

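Quantile normalization of the ratios and the test against a 1.5-fold change (limma's treat) made the largest difference. Of all features, 5190 were called in the fit reported, 1518 after quantile normalization, 391 with treat and 3989 to 4841 with 1 array left out. Of the 8 iron handling genes, 1 (Slc39a14) was called after quantile normalization, 0 with treat (4 at an unadjusted treat p under 0.05) and 5 to 6 with 1 array left out. Of the further iron genes, 25 were called, 5 after quantile normalization, 4 with treat and 14 to 23 with 1 array left out, lowest without LPS array 2 (14) and LPS array 3 (15). With the liver channel alone 8 of them rose and 10 fell, against 16 and 9 in the ratios. Robust eBayes (adjusted p = 0.0447), a trend (0.05, just under it) and a minimum of 0.1 units (0.026) put Hamp past the threshold, and it had an adjusted p of 0.336 after quantile normalization. The sign turned for Bmp6 without control array 1 (-0.027; up to 0.275 with another array left out), for Smad7 with liver intensity alone (-0.257), for Il6 after quantile normalization (-0.001), and for Cp after quantile normalization (0.007), with liver intensity alone (0.212) and without control array 3 (0.076) or 4 (0.003; from -0.22 with another array left out). The cause was not tested. Replicate numbers of the log10 table did not pair the samples (correlations of deviations -0.007, -0.006, 0.018 and 0.157, and not every sample was closest to its own number); with the replicate block 4228 probes, 6 iron handling genes and 17 further genes were called.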

Other observations

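Control livers were not uniform in other iron and acute-phase genes, by values looked up after seeing the data. Control array 3 had the highest control value of Lcn2 (0.94) and of Hpx (0.88), and it was also the highest control for Stat3 (0.31). The same array had the lowest control values of the globins Hbb (-1.03) and Hba-a1 (-0.63) and of Alas2, the erythroid enzyme of heme synthesis (-0.59). Hamp on that array was -2.19, with the low controls, so the control liver with raised Hamp and the one with raised Lcn2 were different livers. The low Lcn2 reading of LPS array 4 did not extend to Il1b (3.83, the highest of the LPS arrays) or Hamp (1.84).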
